A study of Mus musculus with 12 samples.

Results

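Colon RNA from mice with dextran sulfate sodium (DSS) colitis that received thymopentin was compared with colon RNA from mice with trinitrobenzenesulfonic acid (TNBS) colitis that received thymopentin, with 3 libraries of each kind. These are 6 of the 12 libraries of the study, and the other 6 come from mice with DSS or TNBS colitis that received normal saline. The genes compared were all those whose mean over the 6 thymopentin libraries was at least 1 FPKM (a read density corrected for gene length and for library size), which kept 13809 of the 55335 genes in the deposited table. All mice of the 4 groups are labelled wild type with colitis. Strain, sex, age, doses, schedules and the day and hour of collection are unknown from the labels, and any of these that differed between the groups cannot be told apart from the model. Colon without colitis was not analysed here, so a gene that is higher in one model may be raised in that model or lowered in the other. Nothing in the labels says that the 3 libraries of a group come from separate mice, so p-values measure the spread between these libraries, which may be technical. In whole colon RNA, fewer cells of a type and less RNA per cell cannot be told apart. Below, "DSS libraries" and "TNBS libraries" are the thymopentin libraries unless saline is named.

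DSS is a sulfated polysaccharide given in drinking water that injures the colonic epithelium and lets luminal bacteria reach the mucosa, and its colitis can arise in mice without T or B cells. TNBS is a hapten, instilled into the rectum in ethanol, that modifies colonic proteins and gives a transmural inflammation in which T cells take part. Thymopentin is a short peptide that carries the active stretch of thymopoietin and is used as an immune modulator. The comparison of both models under the same treatment asks which genes of epithelium, immune cells and stroma separate the 2 forms of colitis when the drug is present in both.

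Interferon-stimulated genes were called higher in DSS colitis throughout their list, and promoters of 4 of them are shown first because they carry the motif that interferon-activated factors bind. Type I interferons signal through a complex with STAT2 and IRF9, which binds pairs of GAAA half-sites, and the products of the induced genes degrade viral RNA, block translation or present antigen. The sequences are the 160 bases before the RefSeq start of each gene (build GRCm38.p6), written 5′ to 3′ along the gene, with each match to GAAANNGAAA on either strand (TTTCNNTTTC when read from the other strand) in capitals, and matches may overlap.
Ifit1: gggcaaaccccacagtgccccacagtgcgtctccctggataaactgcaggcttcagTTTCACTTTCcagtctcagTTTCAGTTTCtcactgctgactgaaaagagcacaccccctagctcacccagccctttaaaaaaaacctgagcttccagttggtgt
Ifit3: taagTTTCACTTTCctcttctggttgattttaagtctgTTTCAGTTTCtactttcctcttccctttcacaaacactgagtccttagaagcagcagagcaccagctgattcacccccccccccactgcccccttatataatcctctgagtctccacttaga
Isg15: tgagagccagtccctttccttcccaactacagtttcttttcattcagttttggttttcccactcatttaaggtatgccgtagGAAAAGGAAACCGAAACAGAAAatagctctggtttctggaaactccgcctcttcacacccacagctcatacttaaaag
Oas1a: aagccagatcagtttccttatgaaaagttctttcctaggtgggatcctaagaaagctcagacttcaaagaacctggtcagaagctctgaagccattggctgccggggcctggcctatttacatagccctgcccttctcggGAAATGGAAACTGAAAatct
The stretches lie at chr19:34640729-34640888 on the plus strand for Ifit1, at chr19:34583369-34583528 on the plus strand for Ifit3, at chr4:156200819-156200978 on the minus strand for Isg15 and at chr5:120907526-120907685 on the minus strand for Oas1a. Counted back from the gene start, the matches begin 104 and 85 bases upstream in Ifit1, 156 and 122 bases upstream in Ifit3, 78, 72 and 66 bases upstream in Isg15, and 20 and 14 bases upstream in Oas1a. In windows of 300 bases, 250 before and 50 after the start, the motif was present for 12 of the 19 type I interferon response genes that have a window, and for 1131 of all 32851 windows (3.44%). Because 19 of the 26 listed genes is fewer than 80% of them, and 9269 of the 13809 tested genes (67.1%) matched a window, a comparison of motif shares between gene groups is void, and the count describes only the genes that matched. A match is a description of the sequence and not a measured binding site.

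Across all genes, 3804 of 13809 (27.5%) differed between the models at a Benjamini-Hochberg adjusted p under 0.05 in limma on log2(FPKM + 1). Of these, 1502 (10.9% of genes tested) were higher and 2302 (16.7%) were lower in the DSS libraries. Large differences lay mostly on the DSS side: 605 called genes differed by at least 2-fold, 385 of them higher and 220 lower in the DSS libraries, and 40 were at least 8-fold higher against 5 at least 8-fold lower. The groups did not overlap for 6384 genes, which is 46.2% of those tested. The count of calls was 2236 without DSS library 2, 2068 without DSS library 3 and 2449 without TNBS library 3, and 1810 genes stayed called whichever of the 12 libraries was left out. With the libraries rescaled by the median ratio, 1872 genes were higher and 1817 lower, so the share of calls that is higher in the DSS libraries moved from 39.5% to 50.7%. Fold changes of low genes are understated on the log2(FPKM + 1) scale, and 851 tested genes had a mean under 1 FPKM in one of the models. Such genes passed the filter through the other model, and 339 of them were called. List counts that hold such genes only describe the genes that passed.

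The libraries of a group resembled each other more than those of the other model: Pearson's r of log2(FPKM + 1) across genes was 0.967 to 0.976 within the DSS libraries, 0.957 to 0.977 within the TNBS libraries and 0.885 to 0.943 between them. Relative depth, from the recovered reads per FPKM of 65 well covered genes, ran from 0.841 in DSS library 2 to 1.08 in TNBS library 1. Genes of the mitochondrial genome made up 23.7 to 26.8% of the summed FPKM in the DSS libraries and 20.0 to 24.8% in the TNBS libraries. TNBS library 3 stood apart from its 2 partners in several cell type genes: over TNBS libraries 1, 2 and 3, the enterocyte gene Fabp2 was 45.2, 61.6 and 242 FPKM, the goblet cell gene Retnlb 4.01, 6.43 and 78.8 FPKM, the goblet cell gene Tff3 1170.4, 1135 and 215 FPKM and the B cell gene Ms4a1 3.65, 5.67 and 0.132 FPKM. Results that change without it are named where they stand.

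**Figure D1:**
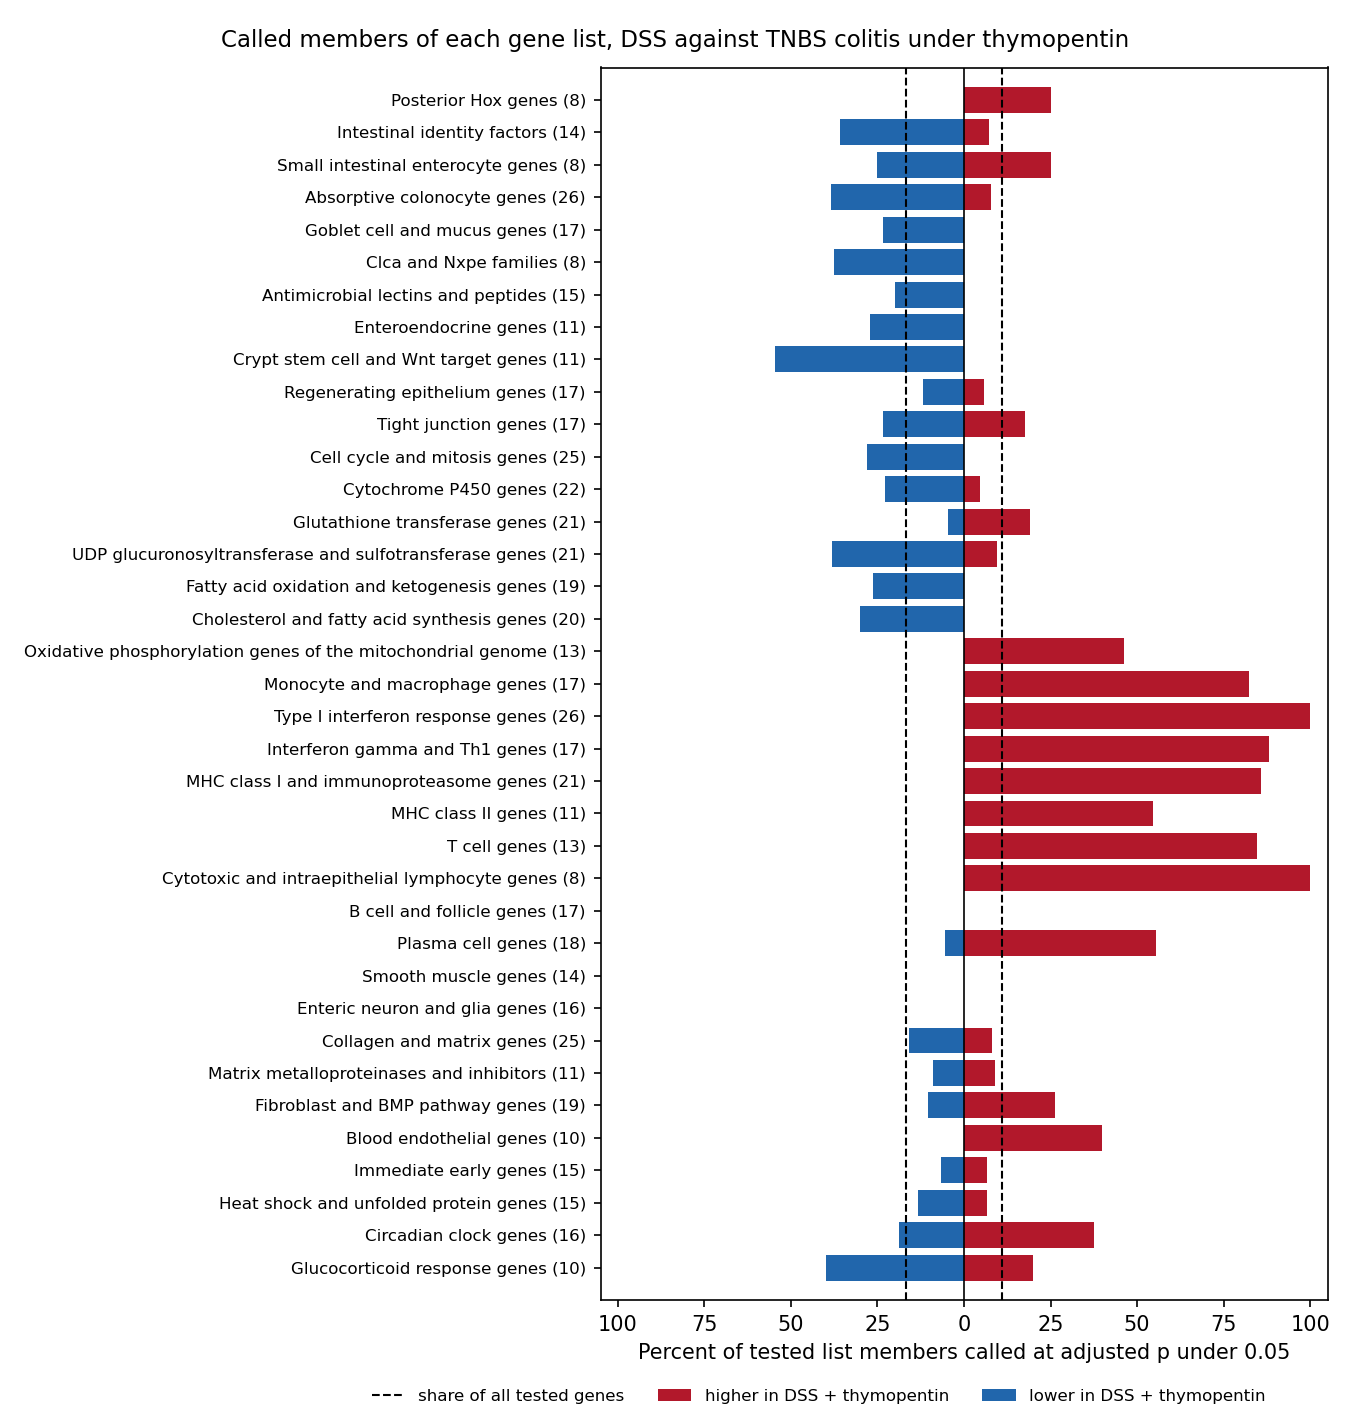
Percent of the tested genes of each gene list called higher (bars to the right) or lower (bars to the left) in DSS than in TNBS colitis under thymopentin, for lists with at least 8 tested genes; dashed lines mark the shares over all 13809 genes, 10.9% higher and 16.7% lower. Lists of interferon, antigen presentation, T cell, cytotoxic lymphocyte and macrophage genes extend to the right. Lists of stem cell and lipid synthesis genes extend to the left. Mucus genes do so near the share of all genes, and the count of fatty acid oxidation genes fell when single libraries were left out. Glutathione transferases and genes of the mitochondrial genome extend mostly to the right, and B cell genes have no bar.

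Type I interferon response genes were higher in the DSS libraries without exception: all 26 listed genes were tested and all 26 were called higher (against 10.9% of all genes). In all 26 the 2 groups did not overlap (against 46.2% of all genes). Their median log2 difference was 1.98, against −0.05 over all genes, and their summed level was 1080 to 1339 FPKM in the DSS libraries and 155.0 to 173.1 FPKM in the TNBS libraries. Among the 2′-5′ oligoadenylate synthetases, which switch on RNA degradation by RNase L, Oas3 stood at 27.0, 24.8 and 20.1 FPKM in the DSS libraries and 1.04, 1.07 and 1.07 FPKM in the TNBS libraries, a difference of 3.59 ± 0.20 log2 units (adjusted p = 7.71e-06). Oas2 stood at 44.2, 54.8 and 43.0 FPKM in the DSS libraries and 1.08, 1.38 and 1.17 FPKM in the TNBS libraries. Oas1a stood at 93.0, 92.6 and 75.9 FPKM in the DSS libraries and 28.2, 27.4 and 25.2 FPKM in the TNBS libraries. The TNBS libraries held Oas2 and Oas3 close to 1 FPKM, whereas Oas1a was present in both models and 3.23-fold higher in DSS. Folds are ratios of mean FPKM, and log2 differences are limma's on log2(FPKM + 1), each with its standard error. 

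Isg15, a ubiquitin-like protein that is conjugated to other proteins during the response, was 148, 201 and 158 FPKM in the DSS libraries and 6.11, 9.08 and 6.93 FPKM in the TNBS libraries (22.9-fold of the TNBS mean, adjusted p = 1.94e-05). Ifi27l2a, an interferon-induced membrane protein, had the second-largest log2 difference of all named genes, with 506, 498 and 374 FPKM in the DSS libraries and 17.3, 14.9 and 11.02 FPKM in the TNBS libraries (4.91 ± 0.30 log2 units, adjusted p = 1.48e-05). Ifit1, which binds RNA with a foreign cap structure, was 35.2, 32.7 and 29.0 FPKM in the DSS libraries and 4.03, 4.24 and 3.56 FPKM in the TNBS libraries. Ifit3, its partner, was 17.9, 25.1 and 20.3 FPKM in the DSS libraries and 2.55, 2.33 and 2.14 FPKM in the TNBS libraries. In each of these 4 genes the lowest DSS library exceeded the highest TNBS library several-fold. The regulators of the pathway were higher as well. Irf7, the factor that amplifies interferon production, was 52.4, 46.7 and 42.7 FPKM in the DSS libraries and 8.10, 6.596 and 9.55 FPKM in the TNBS libraries (adjusted p = 4.02e-05). Stat2, which carries the receptor's signal to the nucleus, was 3.79-fold higher by the ratio of mean FPKM, and the RNA sensors Ddx58 (RIG-I) and Ifih1 (MDA5) were 2.39-fold and 1.59-fold higher. Bst2, which tethers virus particles to the cell surface, was 58.2, 65.1 and 64.4 FPKM in the DSS libraries and 8.44, 12.9 and 9.26 FPKM in the TNBS libraries. Usp18, which removes Isg15 and dampens the receptor, was 8.37, 9.21 and 8.57 FPKM in the DSS libraries and 0.895, 1.24 and 1.05 FPKM in the TNBS libraries. 

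The weakest calls of the list were Ifi27, Mx1 and Oasl1, whose groups did not overlap. Ifi27 lost its call without DSS library 3 or TNBS library 2 or 3 (adjusted p up to 0.0713), and Mx1 without DSS library 2 or TNBS library 2 (up to 0.0699). Oasl1 lost it without any of DSS library 2 or 3, TNBS library 1, 2 or 3, DSS saline library 2 or 3, or TNBS saline library 2 (up to 0.141), and also with no filter on low values. Some known interferon targets outside the list were picked after their values were seen, so they are examples and not further support. Slfn4, a Schlafen family gene of myeloid cells, was 393, 470.3 and 346 FPKM in the DSS libraries and 61.4, 55.0 and 27.9 FPKM in the TNBS libraries. Zbp1, a nucleic acid sensor, was 29.1, 34.5 and 26.1 FPKM in the DSS libraries and 6.87, 8.16 and 3.63 FPKM in the TNBS libraries. Apol9a, an apolipoprotein L, was 14.3, 14.6 and 10.7 FPKM in the DSS libraries and 0.642, 0.819 and 0.937 FPKM in the TNBS libraries. Oas1a and Oas1g, and Ifit3 and Ifit3b, are near-identical neighbours, so how the authors' counting shared reads within each pair is uncertain.

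**Figure D2:**
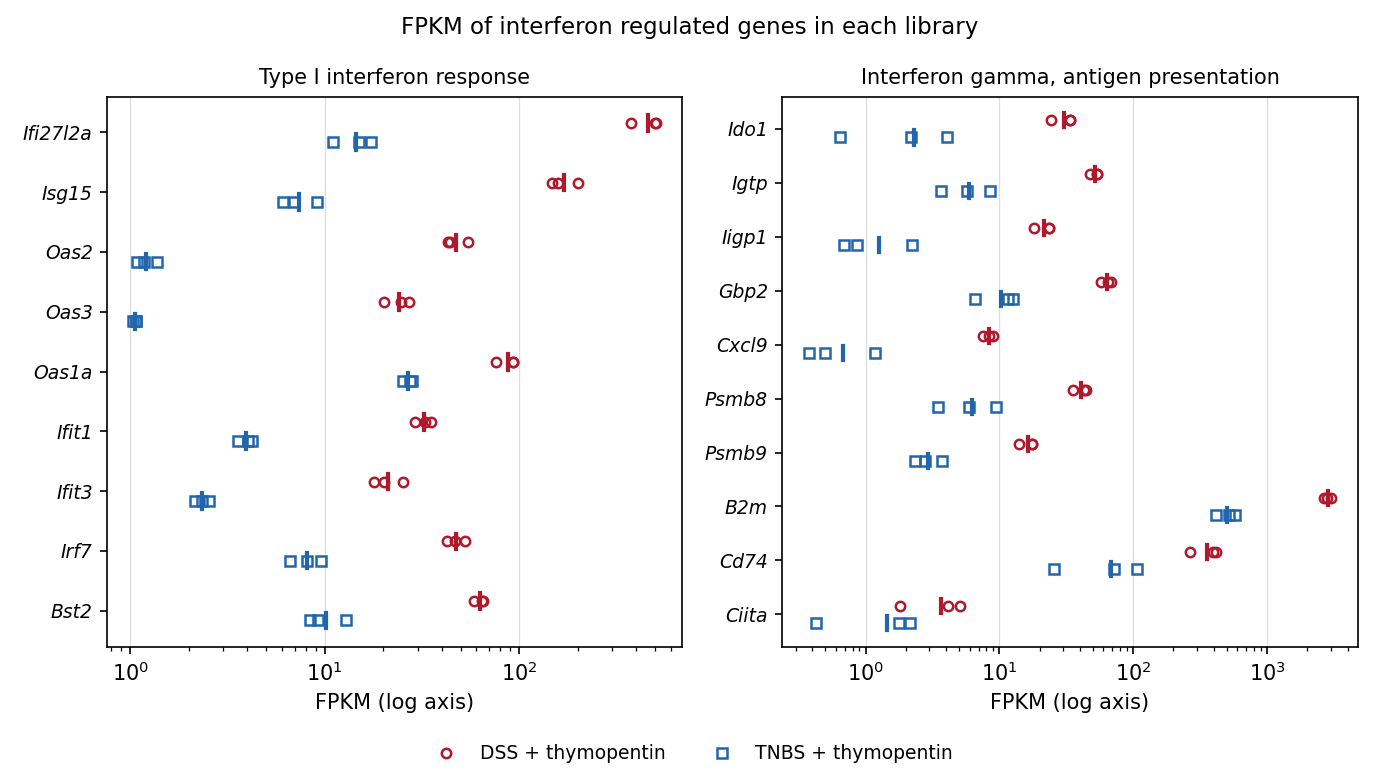
FPKM on a log axis of 9 type I interferon genes and 10 interferon gamma or antigen presentation genes in the 3 DSS (circles) and 3 TNBS (squares) thymopentin libraries, with short bars at the group means. The 2 groups do not overlap for any of these genes but Ciita.

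Genes induced by interferon gamma, the cytokine of Th1, NK and CD8 T cells, were higher in the DSS libraries in 15 of 17 tested cases (against 10.9% of all genes). None was lower, and the median log2 difference was 1.94. The list holds 21 genes, and 4 were below the level filter. The guanylate-binding proteins and immunity-related GTPases, which attack the vacuoles of intracellular microbes, made up most of the calls. Gbp2 was 65.3, 67.8 and 57.4 FPKM in the DSS libraries and 11.6, 12.6 and 6.55 FPKM in the TNBS libraries (6.18-fold, adjusted p = 5.20e-05). Igtp was 47.7, 53.8 and 53.5 FPKM in the DSS libraries and 5.70, 8.53 and 3.65 FPKM in the TNBS libraries (8.66-fold, adjusted p = 4.10e-05). Iigp1 was 18.1, 23.5 and 23.6 FPKM in the DSS libraries and 0.688, 2.22 and 0.866 FPKM in the TNBS libraries. Ido1, which degrades tryptophan, was 33.5, 33.5 and 24.5 FPKM in the DSS libraries and 2.20, 4.04 and 0.645 FPKM in the TNBS libraries (3.39 ± 0.34 log2 units, adjusted p = 0.000224). TNBS library 3 was the lowest of all for Gbp2, Igtp and Ido1, and none of the 4 calls was lost without that library. Cxcl9, a ligand of Cxcr3, the chemokine receptor of activated T cells, was 7.55, 8.37 and 8.99 FPKM in the DSS libraries and 0.496, 1.18 and 0.375 FPKM in the TNBS libraries, and Cxcr3 itself, named after its value was seen, was 2.39, 2.73 and 2.66 FPKM in the DSS libraries and 0.264, 0.291 and 0.212 FPKM in the TNBS libraries. Ifng was below the filter, with 0.380, 0.212 and 0.386 FPKM in the DSS libraries, and was listed at 0 in all TNBS libraries. Irf1 did not pass (82.0, 86.9 and 78.6 FPKM in the DSS libraries and 45.2, 42.5 and 24.9 FPKM in the TNBS libraries, adjusted p = 0.0578) although its groups did not overlap. Tgtp1 and Tgtp2, and members of the Gbp family, are close copies, so reads may be shared between them.

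Antigen presentation by MHC class I was higher in DSS colitis, with 18 of 21 listed genes called higher (against 10.9% of all genes). None was called lower, and the median log2 difference was 1.53. Summed over the list, the level was 4276 to 4608 FPKM in the DSS libraries and 900.0 to 1213 FPKM in the TNBS libraries. B2m, the light chain that every class I molecule needs, was 3029, 2834 and 2657 FPKM in the DSS libraries and 524, 576 and 415 FPKM in the TNBS libraries, which is 5.62-fold (adjusted p = 7.71e-06). Nlrc5, the transactivator of class I genes, was 6.70, 9.20 and 8.27 FPKM in the DSS libraries and 0.885, 1.33 and 0.395 FPKM in the TNBS libraries (9.24-fold, adjusted p = 0.000132). The immunoproteasome subunits Psmb8 and Psmb9, which replace constitutive subunits to cut peptides for class I, were 6.53-fold and 5.53-fold higher. The peptide transporter genes Tap1 and Tap2 were 3.34-fold and 3.06-fold higher. No library of one model reached the range of the other for any of these 6 genes. The classical heavy chains H2-D1 (2.80-fold) and H2-K1 (2.47-fold) differed less than the Qa-region genes H2-Q6 (8.94-fold) and H2-Q7 (8.90-fold), although no test of that contrast between genes was made. Class I genes differ in sequence between mouse strains and resemble each other, so their levels are uncertain where reads could map to several copies. Tapbp (23.8, 19.3 and 11.5 FPKM in the DSS libraries and 25.7, 26.2 and 21.7 FPKM in the TNBS libraries), H2-Q1 and H2-T3 were not called.

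MHC class II was higher as well, but in fewer genes. Of 13 listed genes 11 were tested, and 6 were called higher (against 10.9% of all genes) with a list median of 1.96. Cd74, the invariant chain that guides class II molecules to endosomes, was 268, 414 and 392 FPKM in the DSS libraries and 71.5, 108 and 25.5 FPKM in the TNBS libraries (5.25-fold, adjusted p = 0.00660). H2-Ab1, the beta chain of the class II molecule, was 71.9, 114 and 111 FPKM in the DSS libraries and 20.0, 36.7 and 9.39 FPKM in the TNBS libraries. H2-DMb1, which loads its peptides, was 23.4, 35.0 and 34.9 FPKM in the DSS libraries and 5.61, 8.23 and 1.83 FPKM in the TNBS libraries. DSS library 1 was the lowest of its group and TNBS library 3 the lowest of all in these 3 genes, and the groups did not overlap. The 5 genes that were not called include the B cell associated H2-Ob (1.23, 6.10 and 4.57 FPKM in the DSS libraries and 3.38, 4.40 and 0.270 FPKM in the TNBS libraries) and the class II transactivator Ciita (1.80, 5.12 and 4.14 FPKM in the DSS libraries and 1.77, 2.16 and 0.425 FPKM in the TNBS libraries, adjusted p = 0.162), and the groups overlapped in all 5. In H2-Ob and Ciita, DSS library 1 and TNBS library 3 were the lowest of their groups, as in the B cell genes described below.

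T cell genes were higher in the DSS libraries: 11 of 13 tested genes were called higher (against 10.9% of all genes) and none lower. Their median log2 difference was 1.71, and 6 of the 19 listed genes were below the filter. Their summed level was 85.4 to 118.1 FPKM against 17.98 to 31.9 FPKM in the TNBS libraries. The T cell receptor constant chain Trbc2 was 17.9, 26.4 and 26.9 FPKM in the DSS libraries and 3.77, 4.81 and 0.868 FPKM in the TNBS libraries (7.54-fold, adjusted p = 0.00286). Cd8a, the coreceptor of cytotoxic T cells, was 5.64, 3.92 and 5.30 FPKM in the DSS libraries and 0.521, 0.510 and 0.114 FPKM in the TNBS libraries (12.97-fold, adjusted p = 0.000167). Cd4, the coreceptor of helper T cells, was 2.14, 3.56 and 3.24 FPKM in the DSS libraries and 0.548, 1.02 and 0.378 FPKM in the TNBS libraries (4.603-fold, adjusted p = 0.00559). In all 3 genes every DSS library was above every TNBS library, and TNBS library 3 was the lowest. Foxp3, the factor of regulatory T cells, was below the filter at 0.0374, 0.121 and 0.105 FPKM in the DSS libraries and 0.0891, 0.135 and 0.0654 FPKM in the TNBS libraries, values that overlap. Cd8a, under 1 FPKM in every TNBS library, and Cd4, under 1 FPKM in TNBS libraries 1 and 3, passed the filter through their DSS values. The count of T cell genes thus only describes the genes that passed.

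Cytotoxic and intraepithelial lymphocyte genes had the highest list median, 2.53 log2 units. Among 17 listed genes, 8 of 8 tested were called higher (against 10.9% of all genes). Gzma, Gzmb, Itgae and Cd160 were under 1 FPKM in every TNBS library and passed the filter through their DSS values. Listed genes that were low in both models were not tested, so the count only describes the genes that passed. Gzma and Gzmb encode granzymes, the proteases that killer cells release into their targets. Gzma was 25.9, 48.9 and 35.8 FPKM in the DSS libraries and 0.361, 0.590 and 0.133 FPKM in the TNBS libraries (4.77 ± 0.34 log2 units, adjusted p = 3.11e-05). Gzmb was 10.2, 14.8 and 14.4 FPKM in the DSS libraries and 0.0580, 0.708 and 0.114 FPKM in the TNBS libraries (3.47 ± 0.23 log2 units, adjusted p = 1.94e-05). Ccl5, a chemokine of activated T and NK cells, was 48.9, 55.7 and 65.1 FPKM in the DSS libraries and 1.89, 1.31 and 0.884 FPKM in the TNBS libraries and had the smallest adjusted p of all genes (8.96e-07). The TNBS libraries were under 1 FPKM for both granzymes. Itgae (CD103), the integrin that holds lymphocytes in the epithelium, was 2.39, 2.76 and 2.76 FPKM in the DSS libraries and 0.567, 0.833 and 0.650 FPKM in the TNBS libraries. Cd160 was 2.37, 2.19 and 2.28 FPKM in the DSS libraries and 0.322, 0.492 and 0.441 FPKM in the TNBS libraries. Cd7, picked after its value was seen, was 13.1, 19.0 and 20.9 FPKM in the DSS libraries and 1.44, 1.55 and 0.836 FPKM in the TNBS libraries (13.9-fold). Gzmk, below the filter, was 1.79, 1.222 and 1.61 FPKM in the DSS libraries and listed at 0 in all TNBS libraries. None of the 8 calls was lost without any 1 library.

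Macrophage genes were higher in DSS colitis in 14 of 17 tested cases (23 listed, against 10.9% of all genes) and lower in none. Their median log2 difference was 1.34. The complement subcomponent C1q, made by resident macrophages, was higher in all 3 chains: C1qa was 49.2, 52.8 and 54.8 FPKM in the DSS libraries and 13.4, 15.9 and 8.47 FPKM in the TNBS libraries (4.15-fold, adjusted p = 0.00138). Ccl8, a chemokine of gut macrophages, was 45.2, 50.1 and 46.9 FPKM in the DSS libraries and 4.23, 4.47 and 1.09 FPKM in the TNBS libraries (3.63 ± 0.34 log2 units, adjusted p = 0.000167). Ly6c2, a marker of newly arrived monocytes, was 5.89, 4.87 and 8.49 FPKM in the DSS libraries and 1.34, 1.79 and 0.915 FPKM in the TNBS libraries. Reads of Ly6c2 could be shared with other genes of the Ly6 family, Ly6c1 among them. Adgre1 (F4/80) was 2.26, 1.88 and 1.53 FPKM in the DSS libraries and 0.520, 0.968 and 0.754 FPKM in the TNBS libraries. None of these 4 genes overlapped between the groups. Fcer1g, the signalling chain shared by Fc receptors, was 19.5, 21.2 and 22.9 FPKM in the DSS libraries and 3.69, 5.53 and 2.68 FPKM in the TNBS libraries and was picked after its value was seen. Ccr2 and Csf1r were called, but lost the call without DSS library 2 or 3 or TNBS library 3 for Ccr2 (adjusted p up to 0.0784) and without DSS library 2 or 3, TNBS library 3, DSS saline library 3, or TNBS saline library 1 for Csf1r (up to 0.134). Lyz2, Cd14 and Mertk were not called.

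Proteases of mucosal mast cells were higher as well. Mcpt1 was 8.66, 8.51 and 7.73 FPKM in the DSS libraries and 1.51, 2.34 and 0.738 FPKM in the TNBS libraries (5.42-fold, adjusted p = 0.00165). Mcpt2 was 3.83, 6.001 and 4.09 FPKM in the DSS libraries and 0.638, 1.03 and 0.782 FPKM in the TNBS libraries. Kit, a receptor of mast cells that the interstitial cells of Cajal and some crypt cells also carry, went the other way, with 3.70, 3.36 and 4.37 FPKM in the DSS libraries and 5.38, 7.74 and 11.6 FPKM in the TNBS libraries (fell by 0.89 log2 units, adjusted p = 0.0112). Only 4 of the 14 mast cell and eosinophil genes passed the filter, and the connective tissue mast cell genes Mcpt4 and Cpa3 were under 1 FPKM in all 6 libraries.

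Immunoglobulin genes gave the largest single difference. Ighg2c, a heavy chain constant gene of the IgG2 class, was 114, 152 and 187 FPKM in the DSS libraries and 0.233, 2.01 and 0.450 FPKM in the TNBS libraries (6.41 ± 0.31 log2 units, adjusted p = 3.93e-06). Ighg2b was 60.4, 99.3 and 127 FPKM in the DSS libraries and 1.45, 9.88 and 1.10 FPKM in the TNBS libraries (4.59 ± 0.69 log2 units, adjusted p = 0.00179). Igha, the constant gene of mucosal IgA, was 1162, 1078 and 1307 FPKM in the DSS libraries and 103, 299.7 and 221 FPKM in the TNBS libraries (5.68-fold, adjusted p = 0.00426). The kappa light chain constant gene Igkc was 5855, 5974 and 7466 FPKM in the DSS libraries and 436, 1116 and 711 FPKM in the TNBS libraries. All 4 genes were higher in every DSS library, and reads of the similar Ighg2b and Ighg2c could be shared. Ighg1 (4.30, 7.95 and 6.36 FPKM in the DSS libraries and 2.91, 17.3 and 4.39 FPKM in the TNBS libraries, adjusted p = 0.964) overlapped and was not called. Ighg2c is carried by the immunoglobulin haplotype of some mouse strains, while others carry a different gene in its place, and it was 265, 178 and 174 FPKM in the DSS saline libraries and 0.361, 0.229 and 0.0638 FPKM in the TNBS saline libraries. The labels do not name the strain, so strain and model cannot be told apart for this gene. Among 7 tested genes known to vary between laboratory strains, Ighg2c, Ly6a and Mx1 were called higher (against 10.9% of all genes). Nnt (0.183, 1.54 and 5.002 FPKM in the DSS libraries and 0.763, 1.01 and 0.664 FPKM in the TNBS libraries), Nlrp1b, Pla2g2a and Wdfy1 were not called. Mx1 lost its call as described above (DSS library 2 or TNBS library 2 left out).

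Of 18 tested plasma cell genes, these constant chains included, 10 were called higher and 1 lower (all genes: 10.9% and 16.7%). The higher count ran from 7 to 13 when single libraries were left out. Tnfrsf17 (BCMA), a survival receptor of plasma cells, was 4.31, 5.12 and 4.98 FPKM in the DSS libraries and 0.640, 1.13 and 1.10 FPKM in the TNBS libraries (5.02-fold, adjusted p = 0.00167). Sdc1, which plasma cells share with epithelium, was the gene called lower, with 34.0, 29.7 and 28.0 FPKM in the DSS libraries and 55.2, 57.6 and 51.6 FPKM in the TNBS libraries (adjusted p = 0.000272). Genes of B cells and follicles were called in 0 of 17 tested cases by limma (0 at an unadjusted p under 0.05), against 27.5% of all genes. Of the 17, 0 were free of overlap (against 46.2% of all genes). Their median log2 difference of 0.68 ran from −0.14 without TNBS library 3 to 1.21 without DSS library 1. Ms4a1 (CD20) was 1.48, 7.01 and 6.21 FPKM in the DSS libraries and 3.65, 5.67 and 0.132 FPKM in the TNBS libraries. Cd79a, a chain of the B cell receptor, was 4.93, 35.4 and 30.3 FPKM in the DSS libraries and 14.6, 26.0 and 0.731 FPKM in the TNBS libraries. The low libraries were DSS library 1 and TNBS library 3, so the spread lay within the groups. Whether these libraries hold fewer lymphoid follicles was not tested.

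Most defining genes of neutrophils, the cells whose extracellular traps the study's title concerns, were at or near 0 in both models. Of 14 neutrophil markers 2 passed the filter, and of 16 granule and extracellular trap genes 7 did. S100a8, which with S100a9 makes up much of the neutrophil cytosol, was 0, 0.315 and 0 FPKM in the DSS libraries and 0, 0.148 and 0.236 FPKM in the TNBS libraries. S100a9 was 0.737, 0.204 and 0 FPKM in the TNBS libraries and listed at 0 in all DSS libraries. Padi4, the enzyme that citrullinates histones when extracellular traps form, was 0, 0.0381 and 0.0479 FPKM in the DSS libraries and 0.0643, 0 and 0 FPKM in the TNBS libraries, and Mpo, the myeloperoxidase of neutrophil granules, was listed at 0 in all 6. Ly6g, the usual surface marker, was 217, 183 and 136 FPKM in the DSS libraries and 110.4, 75.7 and 22.4 FPKM in the TNBS libraries, with every DSS library above every TNBS library, but did not pass (adjusted p = 0.203). Ly6g belongs to the Ly6 family, whose members Ly6a (265, 254 and 347 FPKM in the DSS libraries and 79.4, 82.5 and 82.5 FPKM in the TNBS libraries) and Ly6c1 (32.7, 37.5 and 25.4 FPKM in the DSS libraries and 5.15, 5.04 and 5.17 FPKM in the TNBS libraries) were called higher, and reads could be shared among them. Cd177 was called lower (48.1, 40.0 and 41.3 FPKM in the DSS libraries and 53.2, 136 and 72.1 FPKM in the TNBS libraries, adjusted p = 0.0377), but lost the call without DSS library 2 or 3, TNBS library 2 or 3, DSS saline library 3, or TNBS saline library 1 (up to 0.107). Ctsc, the protease that activates granule enzymes and is also made by other cells, was 19.7, 18.04 and 18.7 FPKM in the DSS libraries and 11.2, 14.9 and 9.92 FPKM in the TNBS libraries and was called higher (adjusted p = 0.0145), though not without TNBS library 3 (0.0550). The chemokines that attract neutrophils were low, with Cxcl1 at 0.397, 0.804 and 0.228 FPKM in the DSS libraries and 2.004, 1.15 and 0.284 FPKM in the TNBS libraries. For S100a8, S100a9, Mpo and Padi4 a difference between the models was not detectable at these levels.

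Genes of the absorptive colonocyte were lower in the DSS libraries in 10 of 26 tested cases (against 16.7% of all genes) and higher in 2, with a median log2 difference of −0.38. The lower count was 6 without DSS library 3. Without DSS library 2, DSS library 3 or TNBS library 3, none of the 2 higher calls (Krt8 and Krt19) was left, and 1 was left without DSS library 1, TNBS library 1, TNBS library 2 or TNBS saline library 1. The calls that held without any 1 library were ion and water transporters and related genes. Car1, a carbonic anhydrase of the surface epithelium, was 172, 152 and 146 FPKM in the DSS libraries and 844, 766 and 572 FPKM in the TNBS libraries, 4.65-fold higher in TNBS (adjusted p = 0.00776). Slc9a3, the sodium and proton exchanger of the brush border, was 10.6, 1.76 and 5.08 FPKM in the DSS libraries and 36.4, 41.6 and 50.2 FPKM in the TNBS libraries (7.37-fold higher in TNBS, adjusted p = 0.00658). Guca2a, the precursor of the secretion-regulating peptide guanylin, was 387, 363 and 391 FPKM in the DSS libraries and 912, 1015 and 1568 FPKM in the TNBS libraries (3.06-fold higher in TNBS, adjusted p = 0.00242). The 2 models did not overlap in any of these 3 genes. The water channel Aqp4 (2.98-fold), the sodium channel subunit Scnn1a (1.69-fold) and the short-chain fatty acid carrier Slc5a8 (1.58-fold) were also higher in TNBS. Slc26a3, the chloride and bicarbonate exchanger, was 112, 97.9 and 82.8 FPKM in the DSS libraries and 234, 144 and 144 FPKM in the TNBS libraries, a call (adjusted p = 0.0146) that was lost without DSS library 3 (0.0624). Other epithelial genes were not called and overlapped: Vil1, a brush border protein, was 193, 196 and 165 FPKM in the DSS libraries and 170.2, 179 and 155 FPKM in the TNBS libraries (adjusted p = 0.448). The surface gene Aqp8 was 458, 368 and 295 FPKM in the DSS libraries and 509, 302 and 465 FPKM in the TNBS libraries (adjusted p = 0.679).

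**Figure D3:**
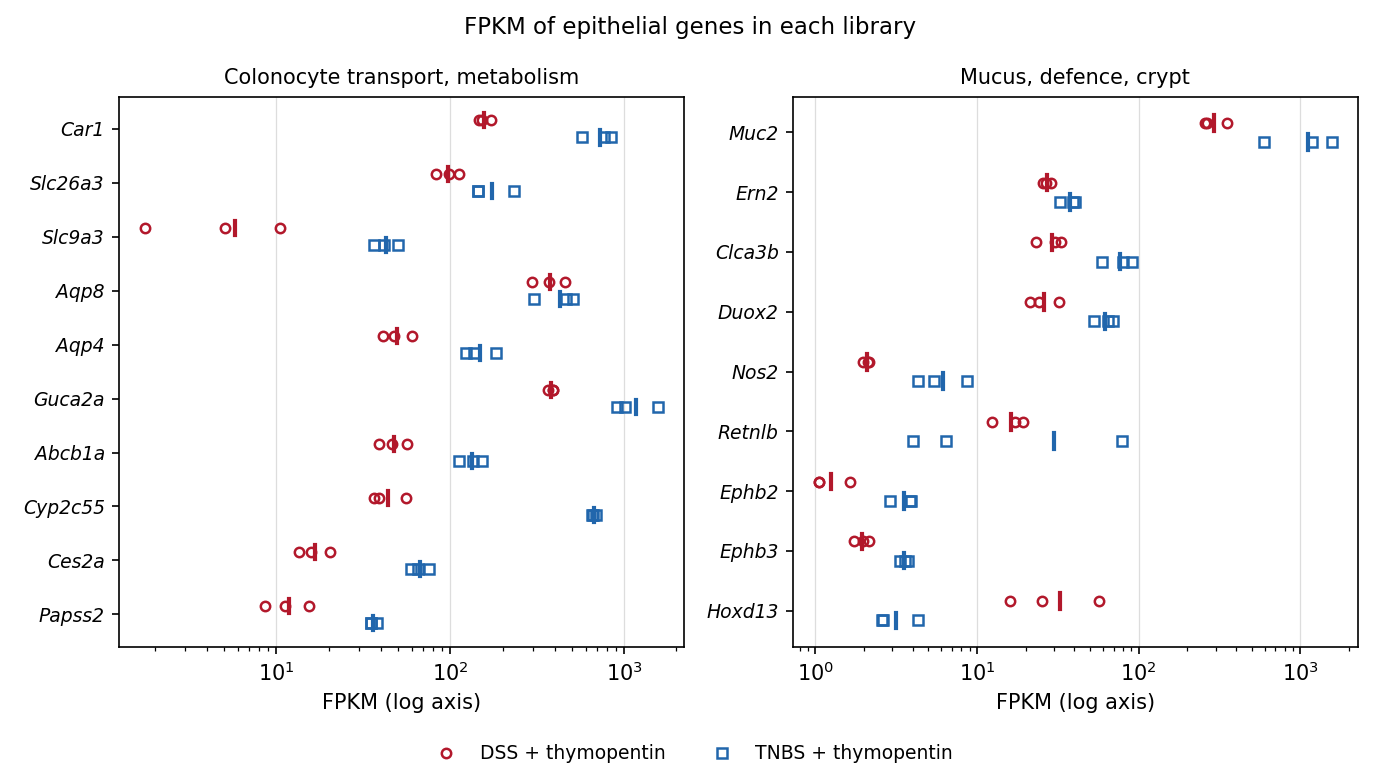
FPKM on a log axis of 19 epithelial genes of transport, detoxification, mucus, defence and crypt position in the 3 DSS (circles) and 3 TNBS (squares) thymopentin libraries, with short bars at the group means. Cyp2c55 shows the widest gap, with 36.7 to 55.5 FPKM in the DSS and 657 to 688 FPKM in the TNBS libraries, whereas Aqp8 and Retnlb overlap.

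Some detoxifying enzymes were far below TNBS levels in the DSS libraries, although the P450 genes as a list were not. Cyp2c55, a cytochrome P450 of the colon that oxidises fatty acids, was 55.5, 39.2 and 36.7 FPKM in the DSS libraries and 657, 666 and 688 FPKM in the TNBS libraries (−3.93 ± 0.59 log2 units, adjusted p = 0.00175). Its relative Cyp2c69 was 0.824, 0.462 and 0.678 FPKM in the DSS libraries and 4.07, 3.11 and 4.17 FPKM in the TNBS libraries. Ces2a, a carboxylesterase that splits esters of drugs and lipids, was 20.5, 15.8 and 13.5 FPKM in the DSS libraries and 76.0, 65.1 and 59.9 FPKM in the TNBS libraries. Its relative Ces2c was 60.0, 41.1 and 38.7 FPKM in the DSS libraries and 172, 107 and 146 FPKM in the TNBS libraries. All DSS values of these 4 genes lay below all TNBS values. Abcb1a, the drug efflux pump P-glycoprotein, was 56.5, 46.4 and 39.2 FPKM in the DSS libraries and 152, 136 and 112 FPKM in the TNBS libraries. Papss2, which makes the sulfate donor for sulfation, was 15.5, 11.2 and 8.65 FPKM in the DSS libraries and 34.9, 37.8 and 35.1 FPKM in the TNBS libraries. Both were picked after their values were seen. Across 22 tested P450 genes, 5 were lower and 1 was higher, against 16.7% and 10.9% of all genes (3 lower without TNBS library 3, DSS library 2 or DSS library 3, and 2 to 5 higher without TNBS library 1, DSS library 1, TNBS saline library 2 or TNBS saline library 3, and 3 higher under median-ratio rescaling or quantile normalization), while the list median was 0.12, above that of all genes. Cyp2s1, the gene called higher, was 29.3, 38.8 and 29.5 FPKM in the DSS libraries and 20.1, 14.4 and 22.5 FPKM in the TNBS libraries (adjusted p = 0.0102). Of 21 tested UDP-glucuronosyltransferase, sulfotransferase and carboxylesterase genes, 8 were lower and 2 higher (all genes: 16.7% and 10.9%), and 4 or 5 were lower without TNBS library 2, TNBS library 3, DSS library 2 or DSS library 3. Of 21 tested glutathione transferases, 4 were higher and 1 lower (all genes: 10.9% and 16.7%), but 2 were higher under quantile normalization or the replicate block, and only 1 was higher without TNBS library 1, TNBS library 3, DSS library 2 or DSS library 3.

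Lipid synthesis genes were lower in DSS colitis in 6 of 20 tested cases (against 16.7% of all genes) and higher in none, with a median of −0.40. Elovl6, which lengthens fatty acids, was 3.86, 3.94 and 3.21 FPKM in the DSS libraries and 12.4, 15.2 and 17.6 FPKM in the TNBS libraries (4.12-fold higher in TNBS, adjusted p = 0.000201). Idi1, an enzyme of isoprenoid and cholesterol synthesis, was 12.1, 4.24 and 7.07 FPKM in the DSS libraries and 25.3, 44.5 and 21.5 FPKM in the TNBS libraries (3.91-fold higher in TNBS, adjusted p = 0.00341). The groups did not overlap in either gene, and TNBS library 2 was the highest for Idi1. Lss was the call of the 6 that depended on single libraries (DSS library 2 or 3 or TNBS library 2, adjusted p up to 0.0894). Of 19 tested genes of fatty acid oxidation and ketogenesis 5 were lower (against 16.7% of all genes), but only 1 or 2 of them without TNBS library 1, TNBS library 2, TNBS library 3, DSS library 2 or DSS library 3, and 2 with median-ratio rescaling or the replicate block. The 13 genes of the mitochondrial genome that encode respiratory chain subunits gave 6 higher calls (10.9% of all genes were higher) and a median of 0.39. That count was 0 under quantile normalization and 1 to 3 without DSS library 2, DSS library 3, TNBS library 1, TNBS library 2 or TNBS saline library 1, and mt-Nd2, mt-Nd4, mt-Nd5 and mt-Nd6 turned negative under quantile normalization, so no direction is given for them.

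Of 17 tested mucus genes 4 were called lower in DSS colitis, near the 16.7% of all genes, and none higher. Their median was −0.53, and 2 were lower without TNBS library 3 or DSS library 3 and 7 without TNBS saline library 3. Muc2, the gel-forming mucin of goblet cells, was 350.4, 264 and 258 FPKM in the DSS libraries and 599.6, 1179.7 and 1565 FPKM in the TNBS libraries (3.83-fold higher in TNBS, adjusted p = 0.00263). Ern2 (IRE1 beta), the endoplasmic reticulum stress sensor of goblet cells, was 25.7, 26.8 and 28.8 FPKM in the DSS libraries and 32.4, 40.2 and 39.4 FPKM in the TNBS libraries (adjusted p = 0.00698). Spdef, the factor that drives goblet cell maturation, was 5.31, 4.85 and 4.02 FPKM in the DSS libraries and 7.17, 11.6 and 15.8 FPKM in the TNBS libraries, a call lost without DSS library 3 or TNBS library 3 (adjusted p up to 0.0578), and Muc4 lost its call without DSS library 2 or 3 or TNBS library 2 or 3 (up to 0.0923). Other goblet cell products overlapped or were not called: Tff3, which aids repair, was 1112, 1254 and 954 FPKM in the DSS libraries and 1170.4, 1135 and 215 FPKM in the TNBS libraries. Zg16, which binds bacteria in mucus, was 2647, 3103 and 2279.7 FPKM in the DSS libraries and 3235, 3711 and 567 FPKM in the TNBS libraries. TNBS library 3 was the lowest of all for both, while it was the highest of all for Muc2.

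Epithelial defence genes were called lower in 3 of 15 tested cases (23 listed), near the 16.7% of all genes, and higher in none, with a median of −0.37. Duox2, the epithelial oxidase that makes hydrogen peroxide, was 32.3, 24.2 and 21.2 FPKM in the DSS libraries and 52.6, 69.2 and 64.6 FPKM in the TNBS libraries (2.40-fold higher in TNBS, adjusted p = 0.00223). Nos2, the inducible nitric oxide synthase, was 2.11, 2.16 and 1.97 FPKM in the DSS libraries and 5.39, 8.70 and 4.29 FPKM in the TNBS libraries (2.94-fold higher in TNBS, adjusted p = 0.00232). Both were higher in every TNBS library. Dmbt1, a pattern recognition glycoprotein, was called lower but not without DSS library 3 or TNBS library 2 or 3 (adjusted p up to 0.0774). Nox1, the colonic NADPH oxidase, and Il22ra1, the epithelial receptor chain for interleukin 22, were picked after their values were seen. Nox1 was 7.42, 3.74 and 5.62 FPKM in the DSS libraries and 13.7, 18.2 and 12.6 FPKM in the TNBS libraries. Il22ra1 was 5.82, 4.06 and 2.56 FPKM in the DSS libraries and 12.4, 11.01 and 13.9 FPKM in the TNBS libraries, and neither gene overlapped. The lectin genes Reg3b and Reg3g, which often rise in colitis, were not among the calls. Reg3b was below the filter and was not tested, with 0.0417, 0 and 0.761 FPKM in the DSS libraries and 0.0265, 0.382 and 0.141 FPKM in the TNBS libraries.

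Crypt base genes were lower in 6 of 11 tested cases (against 16.7% of all genes) and higher in none, with a median of −0.54, and in 3 without DSS library 2 or DSS library 3. Ephb2, the receptor that keeps proliferating cells low in the crypt, was 1.63, 1.05 and 1.06 FPKM in the DSS libraries and 2.90, 3.88 and 3.90 FPKM in the TNBS libraries (2.85-fold higher in TNBS, adjusted p = 0.000740). Ephb3 was 2.13, 1.75 and 1.98 FPKM in the DSS libraries and 3.34, 3.58 and 3.72 FPKM in the TNBS libraries. Smoc2, a stem cell gene, was 2.44, 1.63 and 2.63 FPKM in the DSS libraries and 4.53, 5.64 and 5.07 FPKM in the TNBS libraries (adjusted p = 0.00635). Lgr5, the stem cell receptor for R-spondins, was below the filter, with 0.0920, 0.0992 and 0.178 FPKM in the DSS libraries and 0.623, 0.922 and 0.921 FPKM in the TNBS libraries. The ETS factors Etv4 and Etv5, which follow MAP kinase signalling, were picked after their values were seen. Etv4 was 2.13, 1.26 and 2.27 FPKM in the DSS libraries and 5.17, 6.19 and 6.78 FPKM in the TNBS libraries. Etv5 was 1.86, 0.927 and 1.43 FPKM in the DSS libraries and 4.11, 7.64 and 11.2 FPKM in the TNBS libraries. Lgr5 and these 5 tested genes were lower in every DSS library. Genes of the cell cycle were called lower in 7 of 25 cases (against 16.7% of all genes), with a median of −0.29, but in 0 without TNBS library 3, in 1 without TNBS library 2 or DSS library 2 and in 4 without DSS library 3. Kif20a, a kinesin of cell division, had 2.59, 2.47 and 2.48 FPKM in the DSS libraries and 3.25, 4.44 and 5.28 FPKM in the TNBS libraries, and its call was lost without TNBS library 3 (adjusted p = 0.0526).

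Several of the genes furthest below TNBS levels are epithelial as well. Plet1, a surface protein of epithelial cells, was 5.16, 3.27 and 3.89 FPKM in the DSS libraries and 14.1, 53.2 and 39.1 FPKM in the TNBS libraries (−2.66 ± 0.50 log2 units, adjusted p = 0.00465). Prom1 (CD133) was 5.24, 2.40 and 2.38 FPKM in the DSS libraries and 22.4, 31.0 and 39.0 FPKM in the TNBS libraries (−2.90 ± 0.38 log2 units, adjusted p = 0.000937). Isx, an intestine-specific homeobox factor, was 0.683, 0.251 and 0.492 FPKM in the DSS libraries and 5.07, 9.28 and 8.09 FPKM in the TNBS libraries. Sptssb, a subunit of serine palmitoyltransferase, was 0.209, 0.185 and 0.373 FPKM in the DSS libraries and 7.12, 19.3 and 24.6 FPKM in the TNBS libraries. DSS values of Sptssb were all under 1 FPKM, and TNBS library 1 was the lowest of its group for Plet1, Prom1, Isx and Sptssb. Kctd12 was 10.9, 11.6 and 18.4 FPKM in the TNBS libraries and listed at 0 in all 3 DSS libraries, so no fold is given. On the other side, S100g (calbindin D9k), a calcium-binding protein of enterocytes, was 25.9, 49.8 and 38.7 FPKM in the DSS libraries and 3.35, 2.57 and 0.492 FPKM in the TNBS libraries (3.73 ± 0.41 log2 units, adjusted p = 0.000324). Ubd (FAT10), a ubiquitin-like protein induced by interferon gamma, was 45.3, 70.6 and 59.3 FPKM in the DSS libraries and 4.89, 4.72 and 0.745 FPKM in the TNBS libraries (3.91 ± 0.54 log2 units, adjusted p = 0.00120).

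Identity factors of the intestine were lower in 5 of 14 tested cases and higher in 1, against 16.7% and 10.9% of all genes. They were lower in 3 without TNBS library 2 or TNBS library 3 and in 2 without DSS library 3, and the higher call was lost without TNBS library 1 or 3 or DSS library 2 or 3 and under quantile normalization. Hnf4a, the general intestinal factor, was not called, with 143, 134 and 117 FPKM in the DSS libraries and 148, 130.4 and 130.1 FPKM in the TNBS libraries (adjusted p = 0.716). Among genes of small intestinal enterocytes, 2 of 8 tested were higher and 2 lower (all genes: 10.9% and 16.7%). Mgam, a brush border glucosidase, was 6.64, 5.73 and 4.57 FPKM in the DSS libraries and 14.5, 19.7 and 19.2 FPKM in the TNBS libraries. Fabp6, the ileal bile acid binding protein, was 11.4, 22.1 and 15.3 FPKM in the DSS libraries and 3.45, 3.72 and 1.89 FPKM in the TNBS libraries. The 2 genes moved in opposite directions and neither overlapped between the groups. Chgb, a granin of enteroendocrine cells, was 28.9, 23.2 and 22.1 FPKM in the DSS libraries and 49.9, 64.5 and 66.4 FPKM in the TNBS libraries (adjusted p = 0.00855); it was 1 of 3 calls among 11 tested enteroendocrine genes, all lower (against 16.7% of all genes), and 1 call was left without TNBS library 2 or DSS library 2.

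Position along the colon was read from Hox genes, which are expressed in nested domains with the group 13 genes at the distal end. Of 8 tested posterior Hox genes 2 were called higher in the DSS libraries (against 10.9% of all genes) and none lower. Hoxd13 was 16.0, 56.8 and 25.3 FPKM in the DSS libraries and 4.29, 2.62 and 2.57 FPKM in the TNBS libraries (2.85 ± 0.57 log2 units, adjusted p = 0.00600), with DSS library 2 the highest. Hoxd10 was called but not without DSS library 2, TNBS library 1, 2 or 3, DSS saline library 1, or TNBS saline library 1 (adjusted p up to 0.108). Hoxb13, also distal, was 122, 109 and 104 FPKM in the DSS libraries and 89.8, 87.4 and 49.4 FPKM in the TNBS libraries and was not called (adjusted p = 0.712). Hoxa13 was 29.9, 27.6 and 26.6 FPKM in the DSS libraries and 24.9, 26.2 and 20.0 FPKM in the TNBS libraries (adjusted p = 0.145). Of 7 tested anterior and middle Hox genes 0 were called by limma (2 at an unadjusted p under 0.05), against 27.5% of all genes. The labels do not say which stretch of colon was taken, and its part in the results was not tested.

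Of 25 collagen and matrix genes 2 were higher and 4 lower, shares near those of all genes (10.9% and 16.7%), with 2 lower without TNBS library 3, DSS library 2 or DSS library 3, and 1 higher without DSS library 2 or DSS library 3. Dcn (decorin), a small proteoglycan that binds collagen, was 34.9, 29.97 and 32.4 FPKM in the DSS libraries and 18.8, 17.4 and 19.6 FPKM in the TNBS libraries (adjusted p = 0.000958). Fn1 (fibronectin) was 15.2, 10.7 and 13.3 FPKM in the DSS libraries and 21.4, 26.0 and 21.5 FPKM in the TNBS libraries (1.76-fold higher in TNBS, adjusted p = 0.00538). Col12a1 was 1.27, 0.681 and 0.891 FPKM in the DSS libraries and 3.03, 3.11 and 5.56 FPKM in the TNBS libraries (adjusted p = 0.00528). The fibrillar collagen Col1a1 was 16.2, 15.2 and 18.6 FPKM in the DSS libraries and 14.1, 23.9 and 19.3 FPKM in the TNBS libraries, and its groups overlapped. Smooth muscle genes were called in 0 of 14 cases and enteric neuron and glia genes in 0 of 16 by limma (0 and 2 at an unadjusted p under 0.05), against 27.5% of all genes. Their medians were −0.12 and 0.05. Vip, the neuropeptide of inhibitory neurons, was 14.3, 7.43 and 12.2 FPKM in the DSS libraries and 14.1, 13.5 and 11.1 FPKM in the TNBS libraries (adjusted p = 0.689).

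Genes of the BMP pathway, which opposes Wnt signalling along the crypt axis, were called in both directions. Bmp4, a mesenchymal ligand, was 13.7, 13.3 and 16.5 FPKM in the DSS libraries and 5.50, 6.23 and 9.49 FPKM in the TNBS libraries (adjusted p = 0.00650). The BMP target Id2 was 19.4, 13.7 and 15.2 FPKM in the DSS libraries and 8.81, 8.16 and 8.13 FPKM in the TNBS libraries. Id3, another target, was 39.7, 51.6 and 48.6 FPKM in the DSS libraries and 26.4, 27.4 and 19.0 FPKM in the TNBS libraries. Bmp3, an inhibitory ligand, was 2.25, 1.44 and 2.02 FPKM in the DSS libraries and 8.83, 5.59 and 11.1 FPKM in the TNBS libraries (4.46-fold higher in TNBS, adjusted p = 0.000415). Bmp4 and the inhibitory Bmp3 thus lay in opposite directions without overlap. Grem1 was the other lower call of the fibroblast and BMP list (adjusted p = 0.0256). It was 16.2, 6.92 and 9.33 FPKM in the DSS libraries and 16.1, 20.5 and 27.7 FPKM in the TNBS libraries. Its groups overlapped, and the call was lost without DSS library 2 or 3 or TNBS library 2 or 3. In the whole fibroblast and BMP list of 19 tested genes, 5 were higher and 2 lower (all genes: 10.9% and 16.7%), while 3 were higher without DSS library 3 and 1 was lower without TNBS library 2, TNBS library 3, DSS library 2 or DSS library 3. Lymphatic endothelial genes were higher in 3 of 5 tested cases (against 10.9% of all genes): Ccl21a, the chemokine that leads dendritic cells and T cells into lymphatics, was 93.5, 109 and 109 FPKM in the DSS libraries and 29.9, 17.5 and 21.6 FPKM in the TNBS libraries (4.51-fold, adjusted p = 0.00907). Lyve1, which some macrophages also carry, was 14.1, 9.13 and 9.90 FPKM in the DSS libraries and 4.18, 2.93 and 4.07 FPKM in the TNBS libraries. Blood endothelial genes gave 4 higher calls of 10 tested (against 10.9% of all genes), but 0 to 2 without DSS library 3, DSS library 2, TNBS library 1 or TNBS library 2. Serping1, a complement regulator, and Mgp, a matrix protein that inhibits calcification, were picked after their values were seen. Serping1 was 37.7, 33.4 and 39.7 FPKM in the DSS libraries and 16.1, 17.3 and 17.0 FPKM in the TNBS libraries. Mgp was 34.5, 28.1 and 40.1 FPKM in the DSS libraries and 12.2, 13.1 and 13.1 FPKM in the TNBS libraries. Ccl11 (eotaxin), which attracts eosinophils, was 8.15, 9.07 and 9.69 FPKM in the DSS libraries and 2.24, 1.61 and 3.62 FPKM in the TNBS libraries (3.60-fold, adjusted p = 0.00164).

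Clock genes were called in both directions. Of 16 tested genes 6 were higher and 3 lower in the DSS libraries, against 10.9% and 16.7% of all genes, and 3 were higher without TNBS library 3. Arntl (BMAL1) and its partner Npas2 activate the clock and are in antiphase with Dbp, whose transcription they drive. Dbp was 18.4, 29.7 and 27.6 FPKM in the DSS libraries and 3.44, 2.64 and 1.15 FPKM in the TNBS libraries (10.5-fold, adjusted p = 0.000379). Ciart was 1.66, 2.97 and 3.11 FPKM in the DSS libraries and 0.890, 0.979 and 0.533 FPKM in the TNBS libraries. Arntl was 3.70, 2.45 and 2.40 FPKM in the DSS libraries and 7.36, 5.78 and 8.72 FPKM in the TNBS libraries (2.56-fold higher in TNBS, adjusted p = 0.00116). Npas2 was 4.56, 3.96 and 4.14 FPKM in the DSS libraries and 9.41, 7.11 and 9.20 FPKM in the TNBS libraries. The activators were thus high where their targets were low, without overlap in any of these 4 genes. Nr1d2 (REV-ERB beta), which represses Arntl, was 17.4, 19.5 and 18.6 FPKM in the DSS libraries and 12.9, 10.2 and 10.6 FPKM in the TNBS libraries (adjusted p = 0.00737), and Per2 was called but not without TNBS library 3 (0.0525). The labels do not give the hour of collection, so it and the model cannot be told apart for these genes.

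**Figure D4:**
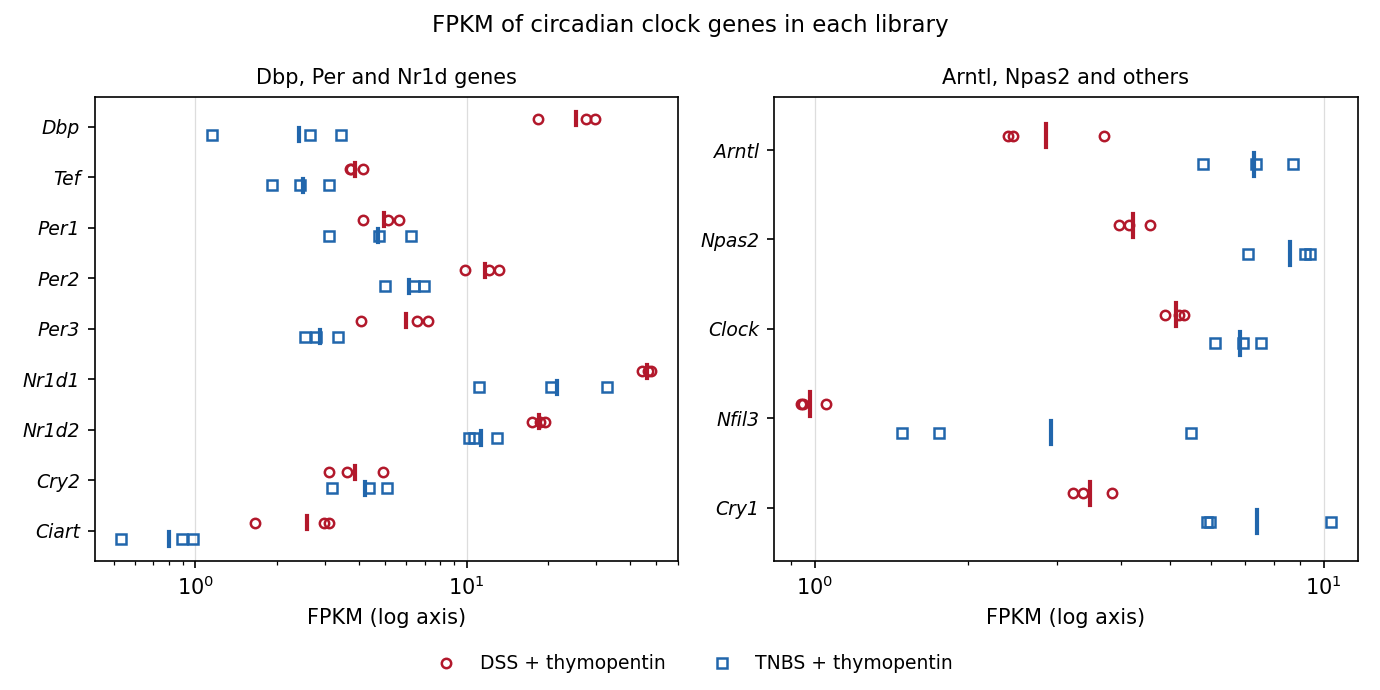
FPKM on a log axis of 14 circadian clock genes in the 3 DSS (circles) and 3 TNBS (squares) thymopentin libraries, with short bars at the group means. Dbp is higher in all DSS libraries (18.4 to 29.7 FPKM against 1.15 to 3.44 FPKM), and Arntl is lower in all of them (2.40 to 3.70 FPKM against 5.78 to 8.72 FPKM).

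Glucocorticoid-responsive genes were read because handling and stress act through that hormone. Of 10 tested genes 4 were lower and 2 higher in the DSS libraries (all genes: 16.7% and 10.9%). Fkbp5, a chaperone that feeds back on the receptor, was 4.41, 3.56 and 3.74 FPKM in the DSS libraries and 9.09, 9.60 and 8.66 FPKM in the TNBS libraries (2.34-fold higher in TNBS, adjusted p = 0.00682). Crispld2, a secreted protein induced by glucocorticoids, was 0.435, 0.376 and 0.366 FPKM in the DSS libraries and 2.34, 3.68 and 3.18 FPKM in the TNBS libraries (7.82-fold higher in TNBS, adjusted p = 0.000103). H6pd, which supplies NADPH to the enzyme that regenerates glucocorticoid, was 0.254, 0.159 and 0.102 FPKM in the DSS libraries and 3.18, 4.30 and 3.74 FPKM in the TNBS libraries (21.8-fold higher in TNBS, adjusted p = 0.000103). All 3 were lower in every DSS library. Sgk1, a kinase that raises sodium uptake, was the other lower call, with 20.9, 4.48 and 8.72 FPKM in the DSS libraries and 35.7, 28.6 and 30.6 FPKM in the TNBS libraries, and it was lost without DSS library 2 or 3 or TNBS library 1, 2 or 3 (up to 0.103). The 2 higher calls were the metallothioneins Mt1 and Mt2, which were lost without DSS library 2 or 3 for Mt1 and DSS library 2 or 3 or TNBS library 3 for Mt2 (adjusted p up to 0.0566 and 0.0649). Of 4 tested sex-linked genes 0 were called by limma (0 at an unadjusted p under 0.05), against 27.5% of all genes, and all overlapped. Ddx3y was 16.3, 15.1 and 11.98 FPKM in the DSS libraries and 11.5, 12.6 and 12.7 FPKM in the TNBS libraries, and Xist did not exceed 0.0871 FPKM in any of the 6 libraries. Tmpo, the gene of thymopoietin, was 7.07, 6.49 and 6.82 FPKM in the DSS libraries and 8.43, 8.37 and 8.94 FPKM in the TNBS libraries and was called lower (adjusted p = 0.0172), but not without DSS library 2 or 3 or TNBS library 3 (up to 0.0647).

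Genes of tissues that could enter a colon sample with its wall or its surroundings were few among those tested. Of 5 tested adipocyte genes, 2 squamous epithelium genes and 4 red blood cell genes, 0 were called by limma (0 at an unadjusted p under 0.05), against 27.5% of all genes. These lists hold 11, 16 and 9 genes. Of 3 tested mesothelial genes 1 was called higher (against 10.9% of all genes), the keratin Krt19, which epithelium also makes. Of 2 exocrine pancreas genes 1 was called lower (against 16.7% of all genes), the colipase gene Clps. Krt19 was 1441, 1638 and 1373 FPKM in the DSS libraries and 1049.7, 1170.4 and 819 FPKM in the TNBS libraries, a call lost without DSS library 2 or 3 or TNBS library 3. Clps was 8.87, 14.1 and 9.94 FPKM in the DSS libraries and 15.9, 23.6 and 19.7 FPKM in the TNBS libraries, a call lost without DSS library 1 or 3 or TNBS library 2 or 3. Neither gene overlapped between the groups, and the other listed genes of both tissues were not called or were below the filter. Of 2 tested skeletal muscle genes, among 13 listed, 1 was called higher (against 10.9% of all genes). It was the actin Acta1, with 11.2, 7.74 and 6.29 FPKM in the DSS libraries and 2.40, 1.99 and 1.76 FPKM in the TNBS libraries (adjusted p = 0.000553 by limma). The groups did not overlap for Acta1. Tight junction genes were higher in 3 and lower in 4 of 17 tested cases, near the 10.9% and 16.7% of all genes, with 2 lower under median-ratio rescaling or the replicate block, 1 or 2 lower without TNBS library 1, TNBS library 2, DSS library 2, DSS library 3, TNBS saline library 1 or DSS saline library 3 and 1 higher without TNBS library 3 or DSS library 2. Of 5 tested tuft cell genes 0 were called by limma (0 at an unadjusted p under 0.05), against 27.5% of all genes. Immediate early genes, which respond within minutes to handling and to cutting off the blood supply, gave 1 higher and 1 lower call of 15 (all genes: 10.9% and 16.7%). Jun was 23.7, 23.3 and 24.0 FPKM in the DSS libraries and 43.3, 33.0 and 58.9 FPKM in the TNBS libraries, a call lost without DSS library 1, 2 or 3, TNBS library 1 or 3, or TNBS saline library 1 (adjusted p up to 0.127).

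The same contrast in the saline libraries, which share no sample with the thymopentin libraries, gave 6374 called genes (46.2% of 13809), of which 1997 were higher and 4377 lower in DSS. Of the 3804 genes called under thymopentin, 3551 (93.3%) differed in the same direction under saline, and 2808 were called in both, which is 73.8% of the thymopentin calls and 44.1% of the saline calls. Among those called in both, 2765 had the same direction and 43 the opposite one. Across all genes the 2 sets of log2 differences had a Pearson's r of 0.68, a description across genes, which are measured in the same libraries and are not independent, and the median size of a difference was 0.27 under thymopentin and 0.36 under saline. Interferon, lymphocyte and macrophage lists lay on the same side in both contrasts. Their medians under saline were 0.83 for type I interferon genes, 1.33 for interferon gamma genes, 0.9999 for MHC class I, 1.49 for T cell genes, 2.20 for cytotoxic genes and 1.54 for macrophage genes.

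**Figure D5:**
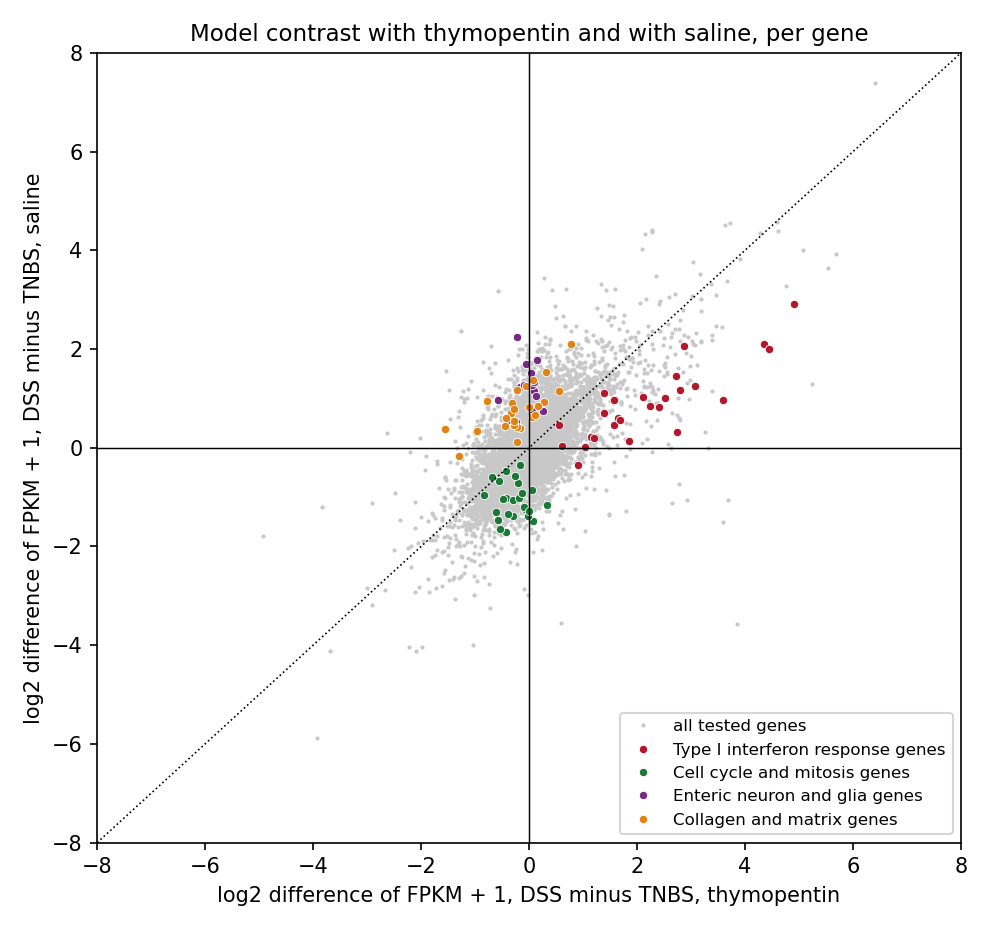
Log2 difference of DSS less TNBS for every tested gene under thymopentin (horizontal axis) and under saline (vertical axis), with type I interferon, cell cycle, neuron and glia, and collagen genes coloured and the dotted line marking equal differences. Type I interferon genes lie to the right of the line (medians 1.98 and 0.83), cell cycle genes lie to the right of it on the negative side (−0.29 and −1.06), and neuron and glia genes lie above it (0.05 and 1.19).

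The difference between the model contrast under thymopentin and that under saline was tested as an interaction, which called 706 genes (5.11% of 13809). That count rested on single libraries: it was 163 without DSS saline library 3, 189 without TNBS saline library 1, 189 without DSS library 2, 331 without TNBS library 1, 332 without DSS library 3 and 360 without TNBS saline library 2. Among type I interferon genes 14 of 26 were called, all with a larger model difference under thymopentin, against 5.11% over all genes. The count was 6 without DSS saline library 3 or DSS library 2 and 9 without TNBS saline library 1, TNBS saline library 2 or TNBS library 1. For Oas3, the interaction was 2.63 ± 0.28 log2 units (adjusted p = 0.00390), and its saline values were 16.7, 8.49 and 11.8 FPKM in the DSS saline libraries and 4.68, 5.74 and 6.56 FPKM in the TNBS saline libraries. Ifit1 was 41.8, 16.9 and 25.2 FPKM in the DSS saline libraries and 15.7, 20.6 and 28.2 FPKM in the TNBS saline libraries, so under saline its contrast was 0.31 ± 0.28 (adjusted p = 0.387), and the interaction was 2.44 ± 0.40 (adjusted p = 0.0121).

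Other lists separated the 2 treatments in the model contrast. Over all 13809 genes, 4377 were called lower and 1997 higher in DSS under saline, against 2302 lower and 1502 higher under thymopentin. Cell cycle genes were lower in DSS in 24 of 25 cases under saline (median −1.06), against 7 of 25 under thymopentin. Their interaction was called in 11 (against 5.11% of all genes), all positive. That count was 4 without TNBS saline library 1, DSS saline library 3 or DSS library 2 and 6 without DSS library 3. Neuron and glia genes were higher in DSS in 15 of 16 cases under saline (median 1.19). Their interaction was called in 11 (against 5.11% of all genes), all negative. That count was 1 without DSS saline library 3, 4 without TNBS saline library 1, TNBS library 1 or DSS library 2, 5 without DSS library 3 and 6 without TNBS saline library 2. Vip was 25.9, 28.8 and 37.9 FPKM in the DSS saline libraries and 7.47, 9.19 and 2.38 FPKM in the TNBS saline libraries, where the DSS values were higher, unlike those under thymopentin given above (interaction −2.46 ± 0.52, adjusted p = 0.0290; up to 0.0729 without DSS library 2 or 3, TNBS library 1 or 2, DSS saline library 3, or TNBS saline library 1). Collagen and matrix genes gave 13 negative interaction calls of 25 (against 5.11% of all genes called). That count was 4 without DSS saline library 3, 5 without TNBS saline library 1, 7 without DSS library 2 and 8 without TNBS saline library 2 or DSS library 3. Fn1 was 32.1, 25.9 and 30.1 FPKM in the DSS saline libraries and 13.02, 13.8 and 17.8 FPKM in the TNBS saline libraries, so it was higher in DSS under saline and lower in DSS under thymopentin (interaction −1.72 ± 0.21, adjusted p = 0.00656). Dcn was 42.2, 49.5 and 48.2 FPKM in the DSS saline libraries and 10.3, 11.02 and 8.84 FPKM in the TNBS saline libraries. Smooth muscle genes had a median of 1.23 with 11 of 14 higher under saline (7 without DSS saline library 1). Their interaction was called in 2 (against 5.11% of all genes), or in 10 without TNBS saline library 3 and 1 without DSS saline library 1. The count was 0 without TNBS saline library 1 or 2, DSS saline library 2 or 3, TNBS library 1 or 3, or DSS library 2 or 3. It was 7 with the replicate block and 11 with array weights, whose estimation did not converge. Markers of muscle, nerve and matrix thus stood higher in DSS in the saline contrast, and how much of each layer of the wall was sampled was not tested.

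Genes with opposite directions were few. Of the 43 genes called in both contrasts with opposite signs, 31 were higher and 12 lower in DSS under thymopentin. Both calls were kept without any 1 library in 10 of the 43, Crispld2, Cyp2s1 and Fn1 among them, and the other 33 lost a call without some library. Crispld2 had the largest interaction among the named genes: it was 6.31, 7.10 and 8.38 FPKM in the DSS saline libraries and 1.77, 1.59 and 2.01 FPKM in the TNBS saline libraries, a saline contrast of 1.56 ± 0.13 (adjusted p = 4.21e-05), against −1.53 ± 0.13 under thymopentin (interaction adjusted p = 0.000117). Lgals2 (galectin 2), picked after its value was seen, was 5.74, 5.40 and 6.66 FPKM in the DSS libraries and 1.92, 2.10 and 2.40 FPKM in the TNBS libraries, and under saline it was 2.68, 1.39 and 1.64 FPKM in the DSS saline libraries and 3.85, 3.10 and 2.91 FPKM in the TNBS saline libraries (interaction 1.72 ± 0.22, adjusted p = 0.00657). Its DSS libraries were the higher ones under thymopentin and the lower ones under saline; the saline call was lost without TNBS saline library 1 (adjusted p = 0.0504). Cyp2s1, an extrahepatic P450, was 11.2, 14.3 and 12.1 FPKM in the DSS saline libraries and 20.6, 17.4 and 21.8 FPKM in the TNBS saline libraries, again reversed from its thymopentin values above (interaction 1.39 ± 0.24, adjusted p = 0.0158). Acta1, whose thymopentin values are given above, was 2.57, 1.98 and 2.19 FPKM in the DSS saline libraries and 5.02, 3.27 and 3.42 FPKM in the TNBS saline libraries, a saline call that was lost without TNBS saline library 1 or DSS saline library 2 or 3 (adjusted p up to 0.112). The other skeletal muscle genes were too low to test but for 1, so the Acta1 values stand alone.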

How the data were processed

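Total colon RNA was sequenced with a strand-keeping kit, per the labels' protocols. The authors deposited FPKM values per gene for 12 libraries, 3 in each of 4 groups. The tools and build named in the submitters' processing notes, whose roles are not stated, are STAR 2.5, Cuffnorm, DESeq 1.22.1, FastQC and mm9. No label or file header used here names the gene models. The authors also deposited, for selected genes, unlabelled log2 columns. Raised back from log2, their low values (up to 30 reads) were whole multiples of 1 step per library, all within 0.01 of a whole number, and relative depth came from these reads per FPKM. Total depth is not known, so no counting interval is given.

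From the deposited FPKM, log2(FPKM + 1) was computed. limma 3.58.1 (R 4.3.3) was fitted with 4 group means over 12 libraries (8 residual degrees of freedom, trended prior), on the 13809 genes with a mean of at least 1 FPKM over the 6 thymopentin libraries, and p-values were Benjamini-Hochberg adjusted over all of them, with calls under 0.05. The script was tested on simulated data. Tables and plots used Python 3.11.15, pandas 2.3.3, numpy 2.4.6 and matplotlib 3.10.9.

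Named genes were the 12 largest and 12 smallest log2 differences among called, non-overlapping genes with a symbol (no immunoglobulin or T cell receptor segments and no provisional names), up to 4 called members of each list by smallest p, and a fixed set of position, neutrophil, strain and sex genes. Other list members with values, and the genes said to be so, were chosen after their values were seen. The comparison and the 56 gene lists (937 of 951 entries matched the table) were chosen with earlier results of these data known. Alternatives were a pseudocount of 0.1, a minimum mean of 5 FPKM, no filter, quantile normalization, median-ratio rescaling, the 6 thymopentin libraries alone, array weights, a replicate block and each library left out. Promoters and motifs came from RefSeq (GRCm38.p6), matched by symbol for 9269 of the 13809 genes (67.1%), and no coordinate of the mm9 files was used with them.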

Additional observations from a re-analysis of the deposited data

Results flagged for a closer look

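The model contrast (DSS less TNBS) differed between thymopentin and saline for 26 named genes by the interaction term of limma, adjusted over all tested genes, against 5.11% of all genes. The named genes were chosen with the thymopentin contrast, which enters the interaction, so their number is a description.

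Genes with a positive interaction stood higher in DSS, relative to TNBS, under thymopentin than under saline. Among interferon and antigen presentation genes these were Oas3 (2.63, adjusted p = 0.00390), Oas2 (2.44, 0.0358), Isg15 (2.24, 0.0174), Ifi27l2a (1.99, 0.0304), Bst2 (1.52, 0.0151), Igtp (1.31, 0.0446), Psmb9 (0.89, 0.0408), B2m (0.82, 0.0437) and H2-T23 (0.68, 0.0303), all in log2 units. The others were the muscle actin Acta1 (2.18, 0.00656), the P450 Cyp2s1 (1.39, 0.0158), the sulfotransferase Sult1a1 (1.31, 0.0296), the mitotic kinesin Kif20a (0.88, 0.0377), Derl3 of the secretory pathway (0.80, 0.0451), the glutathione transferase Gstm1 (0.75, 0.0377) and the goblet cell stress sensor Ern2 (0.68, 0.0205).

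Genes with a negative interaction were Crispld2 (−3.10, adjusted p = 0.000117), H6pd (−2.21, 0.00436), the matrix genes Fn1 (−1.72, 0.00656) and Dcn (−1.34, 0.00390), the chemokine Ccl11 (−1.32, 0.0449), the hormone gene Gcg (−1.30, 0.0174), Nos2 (−1.25, 0.0285), the endothelial claudin Cldn5 (−1.23, 0.0451), the water channel Aqp4 (−0.96, 0.0472) and Cyp2c69 (−0.88, 0.0336). The interaction of 8 of the 26 genes was called whichever library was left out: Acta1, Bst2, Crispld2, Cyp2s1, Dcn, Fn1, H6pd and Oas3. That of Isg15 was lost without DSS library 2 or DSS saline library 3 (adjusted p up to 0.0523), that of Gcg without DSS library 2 (0.0501) and that of Ern2 without DSS library 2, DSS saline library 3, or TNBS saline library 1 (up to 0.0538). The remaining 15 were each lost without any of 5 or more libraries, always including DSS library 2 and DSS saline library 3. Other settings ended the interaction call of 16 of the 26 genes. Median-ratio rescaling ended it for Psmb9 (adjusted p = 0.0578), B2m (0.0817), H2-T23 (0.0559), Igtp (0.0646), Derl3 (0.0623) and Gstm1 (0.0783), and quantile normalization ended 9 calls, those of Psmb9 (0.0561) and H2-T23 (0.0554) included. The replicate block ended 7, a pseudocount of 0.1 ended 4, and 15 were lost with no filter on low values. Of the 21 tested MHC class I and immunoproteasome genes, 5 had an interaction called by limma (against 5.11% of all genes). That count was 0 after median-ratio rescaling (8 at an unadjusted p under 0.05) and 1 under quantile normalization.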

How the results depend on the processing

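The count of genes called between DSS and TNBS under thymopentin was within 1.5 times of 3804 under every alternative but leaving out a library, which gave 2068 to 4009. Under saline it was 6374, with 3717 at a mean of at least 5 FPKM, which tests fewer genes, and 5282 to 6373 when single libraries were left out. The interaction was called in 706 genes, in 390 at a mean of at least 5 FPKM, in 355 with no filter, in 2823 with array weights, whose estimation stopped before it converged, and in 163 to 755 when single libraries were left out. Among named genes, quantile normalization turned mt-Nd2 (−0.0234), mt-Nd6 (−0.0176), mt-Nd5 (−0.0104) and mt-Nd4 (−0.17) negative. Leaving out single libraries gave −0.0592 (without DSS library 3) to 1.11 for Nnt and −0.145 to 0.0247 (without TNBS library 3) for Uty, a Y-linked gene, and neither was called. For the effects of other alternatives the cause was not tested. Of 155 called named genes, 108 were called without any 1 library and 121 under every other alternative that tests them.

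Replicate numbers did not pair the libraries: deviations of same-numbered DSS and TNBS libraries correlated at −0.124, 0.102 and −0.0216. With a replicate block the counts were 3564 under thymopentin, 6277 under saline and 735 for the interaction.

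With 3 libraries a group, differences within the spread were not detectable. Levels near 0 FPKM rest on few reads.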
